A study of Mus musculus with 22 samples.

Results

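The lignan comparison covers 11 of the 22 mammary glands profiled in the series: 6 glands of mice fed secoisolariciresinol diglucoside (SDG) and 5 of mice fed the basal diet, chosen by the diet in their labels. All animals were female C57BL/6 mice that entered the study at 4 to 5 weeks of age and ate their diet for 3 weeks. The basal group received the AIN-93G diet and the SDG group received 0.15% SDG. The other 11 glands, used here only for side-by-side values, came from mice fed 10% flaxseed (6 glands) or 3.67% flaxseed oil (5 glands). The design gave 6 mice to each diet. The submitters excluded basal gland 5 and oil gland 5 for too few probes above background, and neither was analysed here. Total RNA of the whole left mammary gland (number 4) of each mouse was counted in a lane of its own on a NanoString nCounter mouse miRNA panel, which reads each miRNA through a fluorescent barcode without amplification. Lanes are named below by diet and replicate number. The comparison addresses whether the lignan alone, without the rest of the seed, goes with a different miRNA profile in the young gland.

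SDG is a plant lignan glycoside. Gut bacteria convert it to the enterolignans enterodiol and enterolactone, which bind estrogen receptors weakly and are therefore counted among the phytoestrogens. A miRNA lowers the output of messenger RNAs that pair with its seed, the stretch from base 2 to base 8, so miRNAs with the same seed share many targets. The mammary gland holds luminal and basal epithelium, adipocytes, stroma, vessels and immune cells, and in the mouse this gland, the inguinal one, also contains a lymph node and lies against the muscle of the body wall. The labels do not say whether the lymph node was removed. In whole-gland RNA, fewer cells of a type and less RNA per cell cannot be told apart.

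Some of the miRNAs described below are given with the seed in capitals. The sequences are the mature strands of RefSeq on GRCm38.p6, where 20 of the 24 miRNAs looked up were matched. The leading probes miR-150 and miR-486 were not matched, so their sequences are not given. The first 3 listed were among those that stood higher in SDG, and miR-15b carries the seed of the miR-15/16 family. The others are 2 muscle miRNAs, the pair miR-500 and miR-501-3p that share a seed, miR-1931, and miR-872, which had the narrowest spread between SDG lanes of those described.
miR-142-3p: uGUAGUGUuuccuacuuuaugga
miR-342-3p: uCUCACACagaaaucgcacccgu
miR-15b: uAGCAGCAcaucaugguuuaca
miR-133b: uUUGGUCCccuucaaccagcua
miR-206: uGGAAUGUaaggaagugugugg
miR-500: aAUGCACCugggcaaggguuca
miR-501-3p: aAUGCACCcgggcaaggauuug
miR-1931: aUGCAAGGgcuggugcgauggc
miR-872: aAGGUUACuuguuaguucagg
On GRCm38.p6, miR-142-3p lies at chr11:87756903-87756925 (plus strand), miR-342-3p at chr12:108658680-108658702 (plus) and miR-15b at chr3:69009775-69009796 (plus). The muscle pair lies together on chromosome 1, with miR-206 at chr1:20679055-20679076 and miR-133b at chr1:20682834-20682855, both on the plus strand. On the minus strand of the X chromosome, miR-500 lies at chrX:7237695-7237716 and miR-501-3p at chrX:7241270-7241291. Finally, miR-1931 lies at chr10:93162879-93162900 (plus) and miR-872 at chr4:94665167-94665187 (plus). Among 1679 mouse mature miRNAs of the same table, 10 carry the miR-15b seed and 2 that of miR-500. For miR-142-3p, miR-342-3p, miR-1931 and miR-872 no other entry of the table has the seed (count of 1 each). Some miRNAs were not matched there, so these counts can be too low.

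Depth was 260062 to 685937 counts per lane over the 566 mouse miRNA probes in SDG and 363914 to 761468 in basal. Between 33.6% and 50.4% of the probes of a lane exceeded its background, which was 2 SD above the mean of its 8 negative controls. A few lanes stood apart. The probe for miR-720, a tRNA fragment that was once annotated as a miRNA, took 65.5% of the counts in basal 1 and 47.4% in SDG 5, against 2.46% to 8.62% in the other 9 lanes. Of the 253 probes tested, basal 1 had the highest level of the 11 lanes for 86 (34.0%) and the lowest for 70 (27.7%). The positive controls, synthetic targets added at fixed amounts, had a geometric mean of 1356 ± 92.4 (SD, n = 6) in SDG and 1146 ± 86.3 (n = 5) in basal lanes (exact permutation test, p = 0.00866; adjusted over 7 quality measures, 0.0606). They stood at 1294 ± 110 (n = 5) in oil and 1177 ± 129 (n = 6) in flaxseed lanes. In the deposit, basal and flaxseed lanes are numbered 1 to 12 together and oil and SDG lanes 1 to 12 again. Whether these were separate runs is not given in the sources used here, and diet and set cannot be told apart for SDG against basal.

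No miRNA differed between SDG and basal at an adjusted p under 0.05 in edgeR's quasi-likelihood test with Benjamini-Hochberg adjustment. The share called was 0 percent, 0 of 253, and the smallest adjusted p was 0.773. DESeq2 and limma-voom also called 0. At an unadjusted p under 0.05 edgeR listed 13 probes (5.14 percent), 5 of them higher in SDG (1.98 percent) and 8 lower (3.16 percent), against 15 in DESeq2 and 4 in limma-voom. No probe had all 6 SDG lanes above or below all 5 basal lanes (0 of 253, 0 percent). Log2 fold changes were above 0 for 122 probes (48.2 percent) and below 0 for 131 (51.8 percent), with a median of -0.02. They reached a doubling for 7 probes and a halving for 10. The median SE was 0.31, and the median 95% interval ran 0.64 to either side of the estimate on the log2 scale, so smaller differences were mostly not detectable with these lanes. That interval is not adjusted for the 253 tests. Estimates as far from 0 as 2.26 (miR-142-3p) and -2.65 (miR-133a) were not called either, so larger differences can also have been missed. The miRNAs below are therefore described by their lanes, and none of them passed the test.

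**Figure D1:**
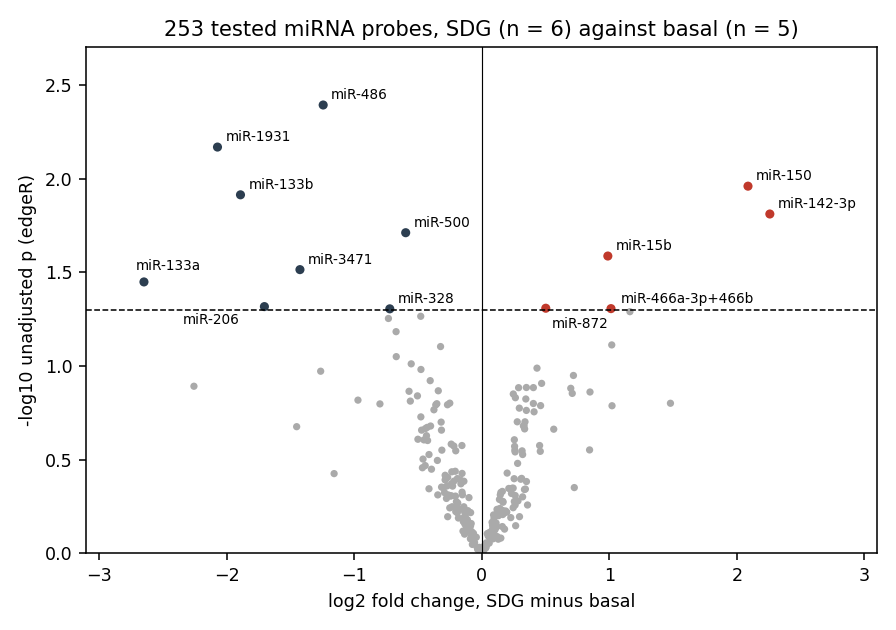
Log2 fold change of SDG over basal (x axis) against −log10 of the unadjusted p of edgeR's quasi-likelihood test (y axis), 1 point for each of the 253 probes tested, with the dashed line at an unadjusted p of 0.05. The 13 coloured and named probes lie past that line on both sides, 5 higher (red) and 8 lower (dark), and none passed the adjusted threshold.

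Among the probes that stood higher in SDG, miRNAs typical of lymphocytes came first. For miR-150, which is abundant in mature B and T cells, the basal lanes read 12.08, 11.44, 11.11, 11.37 and 11.25 log2 CPM (TMM-scaled counts relative to the lane total, CPM, with 1 count added, in the order basal 1, 2, 3, 4 and 6). The SDG lanes 1 to 6 read 14.45, 15.25, 11.10, 11.77, 11.08 and 11.99. SDG 1 and SDG 2 were far above all basal lanes, and the other 4 SDG lanes lay within or near the basal range. The fitted log2 fold change was 2.09 ± 0.75 (SE), with an unadjusted p of 0.011 and an edgeR adjusted p of 0.773.

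The blood-cell miRNA miR-142-3p, expressed across hematopoietic lineages, followed the same lanes. It read 10.46, 12.42, 12.46, 12.42 and 12.33 log2 CPM in the basal lanes and 15.52, 15.97, 12.25, 12.50, 12.67 and 12.23 in the SDG lanes. Its log2 fold change was 2.26 ± 0.86 (edgeR, adjusted p = 0.782). Here too SDG 1 and SDG 2 stood alone, and basal 1 was the low lane.

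Another lymphocyte marker, miR-342-3p, had basal lanes between 10.02 and 10.25 and SDG lanes at 11.95, 12.41, 10.32, 10.23, 9.68 and 9.99 log2 CPM. Its log2 fold change of 1.02 ± 0.55 missed the unadjusted limit (edgeR, unadjusted p = 0.0773, adjusted p = 0.807). For miR-15b, a member of the miR-15/16 family that restrains cell cycle genes, basal lanes lay between 10.42 and 11.33. SDG lanes read 12.52, 13.24, 11.33, 11.49, 10.67 and 11.24, with a log2 fold change of 0.99 ± 0.41 (unadjusted p = 0.0259, edgeR adjusted p = 0.807). Again SDG 1 and SDG 2 were the high lanes. SDG 4 also lay above every basal lane, by a small margin, and SDG 3, SDG 5 and SDG 6 lay within the basal range.

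The summed level of the lymphocyte list (miR-142-3p, miR-142-5p, miR-150, miR-155, miR-342-3p and miR-342-5p) was 13.20 to 13.39 log2 CPM in the 5 basal lanes and 13.26 to 13.47 in SDG 3 to SDG 6. It was 16.20 in SDG 1 and 16.74 in SDG 2. High values were not limited to the lignan diet, as oil 1, oil 3 and oil 4 stood at 15.73, 16.83 and 16.57 and flaxseed 3 at 15.02. In flaxseed 3, however, miR-142-3p was high, at 14.71, while miR-150 read 12.21 and miR-342-3p 7.82. The low-count member miR-342-5p was also high there, at 7.12 (32 counts), against 5.08 to 5.80 in the other flaxseed lanes. In that lane miR-720 took 53.7% of the counts. Of the 6 members, all tested, 5 had a log2 fold change above 0 and miR-155, an activation-linked immune miRNA, stood at -0.42 ± 0.36. The list median was 0.79, against -0.02 for all tested probes. Without SDG 1 and SDG 2, a setting chosen after seeing the data, the list median was -0.01, the log2 fold change was 0.06 for miR-150, 0.25 for miR-142-3p and 0.17 for miR-15b, and the probes at an unadjusted p under 0.05 fell in number from 13 to 5, with 0 higher. Without SDG 2 alone there were also 5. The part of lymph node tissue in these values was not tested.

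**Figure D2:**
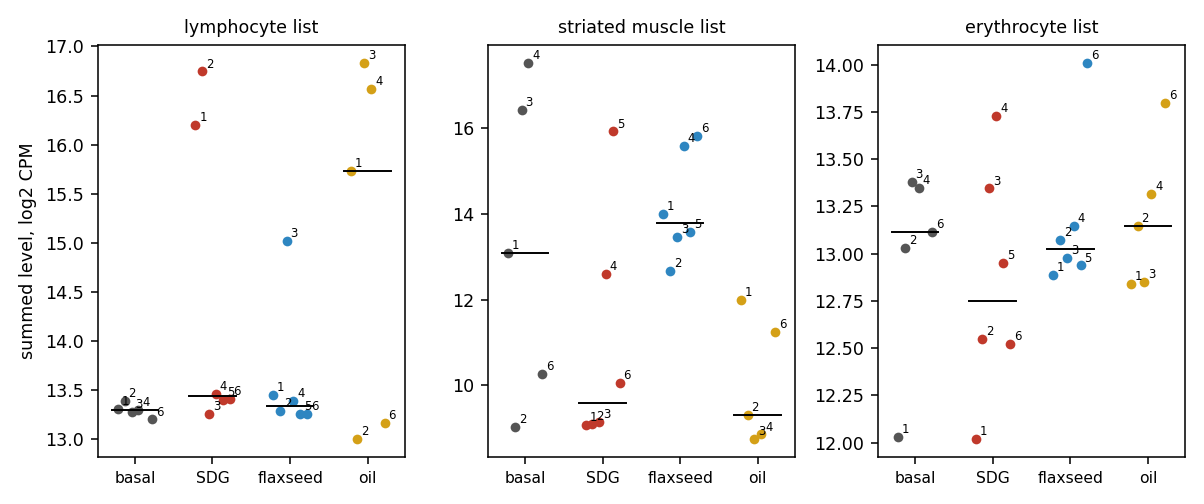
Summed level of the lymphocyte, striated muscle and erythrocyte lists (y axis, log2 CPM) in each lane of the 4 diets (x axis), 1 point per lane with its replicate number, and the median of each diet as a line. SDG 1 and SDG 2 stand apart for lymphocyte miRNAs (16.20 and 16.74 against at most 13.47 in the other SDG and basal lanes), as do 3 oil lanes, and striated muscle miRNAs spread widely in both the basal and SDG diets.

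The lanes recur across the leading probes. SDG 1 and SDG 2 were the 2 highest of the 11 lanes for 8 of the 10 probes that led on the higher side, among them miR-466a-3p with miR-466b-3-3p, miR-467b, miR-20a with miR-20b, and miR-7a. The 2 exceptions were miR-192 and miR-872. Over all tested probes the pattern held for 26 of 253 (10.3%), those 8 included. The leading probes were picked from these same lanes for standing higher in SDG, so this contrast is partly built in. The miR-466a-3p and miR-467b probes exceeded background in 3 SDG lanes and 0 basal lanes, so their log2 fold changes of 1.01 ± 0.49 and 1.16 ± 0.56 rest on counts near the background. This lane pattern was described after the values were seen.

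**Figure D3:**
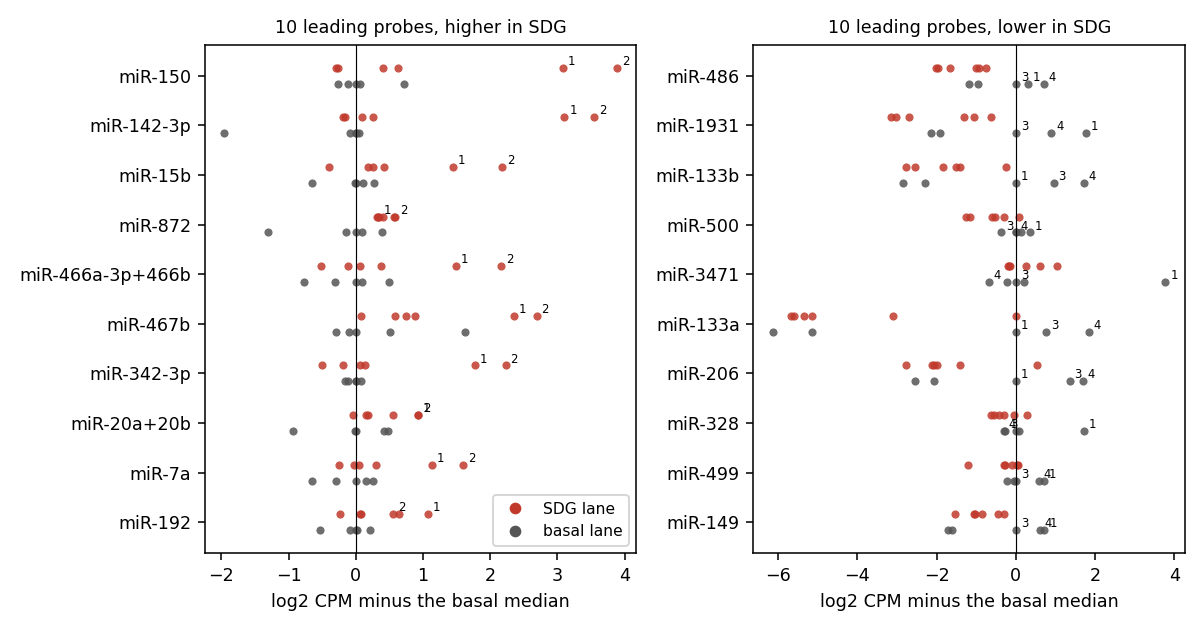
Log2 CPM of each SDG lane (red) and basal lane (grey) minus the basal median (x axis), for the 10 leading probes on the higher side (left) and the 10 on the lower side (right). Small numbers mark SDG 1 and SDG 2 on the left and basal 1, 3 and 4 on the right, and SDG 1 and SDG 2 are the 2 highest lanes for 8 of the 10 on the left.

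On the lower side, several miRNAs of striated muscle were among the 10 leading probes, behind miR-486 and miR-1931 in unadjusted p. All 5 tested members of the list of 7 had a log2 fold change below 0, with a median of -1.89, against 51.8 percent of all 253 probes below 0. Of the 5, 3 had an unadjusted p under 0.05, against 8 of all 253 probes (3.16 percent) lower at that limit. Some members share clusters and follow the same lanes, so they are not independent. For miR-1, the most abundant muscle miRNA, basal lanes read 12.34, 8.24, 16.32, 17.42 and 9.94 log2 CPM and SDG lanes 8.14, 8.23, 8.24, 12.45, 15.84 and 9.70. Basal 3, basal 4 and SDG 5 held the high values, the groups overlapped over most of their range, and the log2 fold change was -2.26 ± 1.43 (edgeR, adjusted p = 0.807). The mean was 12.9 ± 3.97 (SD, n = 5) in basal and 10.4 ± 3.12 (n = 6) in SDG.

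Its cluster partner miR-133a, which acts with miR-1 in muscle differentiation, read 11.49, 5.36, 12.25, 13.33 and 6.34 in basal and 5.89, 6.15, 5.81, 8.39, 11.49 and 6.34 in SDG lanes. The log2 fold change was -2.65 ± 1.18 (unadjusted p = 0.0356, edgeR adjusted p = 0.807). Both diets held lanes above 11 and lanes near 6. It exceeded background in 4 basal lanes and 3 SDG lanes, so its lowest readings were at background level.

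The skeletal-muscle pair from chromosome 1 behaved alike. Levels of miR-133b were 7.37, 5.08, 8.32, 9.08 and 4.52 in basal and 5.97, 4.60, 5.53, 5.86, 7.12 and 4.83 in SDG lanes (-1.89 ± 0.69, unadjusted p = 0.0122). It exceeded background in 3 basal lanes and 1 SDG lane. For miR-206, the values were 7.99, 5.44, 9.34, 9.68 and 5.91 in basal and 5.21, 5.99, 5.87, 6.59, 8.51 and 5.91 in SDG lanes (-1.70 ± 0.81, unadjusted p = 0.0482), again above background in 3 basal lanes and 1 SDG lane. Basal 1, 3 and 4 were high for both, and SDG 5 was the high SDG lane.

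The summed muscle level ranged from 9.03 to 17.51 log2 CPM in basal and from 9.07 to 15.92 in SDG lanes. The sizes of the differences moved with single lanes. Without basal 4 the log2 fold change of miR-133b was -1.18 and that of miR-1 -0.999, and without SDG 5 that of miR-1 was -5.21 and that of miR-133a -4.95. Without basal 3, basal 4 and SDG 5 together, the lanes with the highest miR-1 and a setting chosen after seeing the data, miR-1 stood at -0.58, miR-206 at -0.81 and miR-133b at -0.59, while miR-133a stood at -3.05 (edgeR, unadjusted p = 0.011), further from 0 than with all lanes. For miR-133a the basal lanes left read 11.49 (basal 1), 5.36 and 6.34. Only basal 1 lay above the SDG lanes left, at 5.81 to 8.39. The part of body-wall muscle in these samples was not tested. The cardiac members miR-208a and miR-208b did not reach the detection filter.

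Basal 1, 3 and 4 were also the 3 highest of the 11 lanes for miR-486, miR-1931 and miR-149. With miR-133a and miR-133b this made 5 of the 10 leading lower probes, against 6 of all 253 (2.37%), those 5 included. The leading probes were picked from these same lanes for standing lower in SDG, so this contrast is partly built in. The smallest unadjusted p of the comparison, 0.00405, belonged to miR-486, a miRNA of erythroid and muscle cells. It read 10.38, 8.88, 10.07, 10.77 and 9.11 in basal and 8.06, 8.41, 9.14, 9.07, 9.33 and 8.09 log2 CPM in SDG lanes, a log2 fold change of -1.24 ± 0.39 (edgeR, adjusted p = 0.773). All SDG lanes lay below basal 1, 3 and 4, and SDG 3, SDG 4 and SDG 5 overlapped basal 2 and basal 6. Against the same basal lanes, miR-486 stood at -1.02 ± 0.41 in oil and -0.37 ± 0.38 in flaxseed.

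The other erythrocyte markers did not follow miR-486, as miR-451, the most abundant miRNA of red cells, stood at 0.09 ± 0.31 and miR-144, transcribed with it, at -0.18 ± 0.40. The summed erythrocyte level was 12.03 to 13.38 log2 CPM in basal and 12.02 to 13.73 in SDG lanes. For miR-1931 the basal lanes read 10.01, 6.08, 8.23, 9.13 and 6.32 and the SDG lanes 5.21, 5.54, 5.08, 6.92, 7.59 and 7.17 (-2.07 ± 0.69, unadjusted p = 0.00679, edgeR adjusted p = 0.773). It exceeded background in 3 of 6 SDG lanes and 5 of 5 basal lanes. Basal 1 alone carried 2 further probes: miR-3471 read 10.13 there and 5.67 to 6.55 in the other basal lanes, and miR-328 read 11.07 against 9.05 to 9.43. Their log2 fold changes were -1.43 ± 0.62 and -0.72 ± 0.35, and without basal 1 they were 0.47 and -0.12.

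Outside these lane groups, miR-500 and miR-872 were the remaining probes at an unadjusted p under 0.05. For miR-500 the basal lanes read 7.91, 7.68, 7.17, 7.54 and 7.53 and the SDG lanes 7.01, 6.29, 7.61, 6.94, 7.24 and 6.39 log2 CPM. SDG 3 lay inside the basal range and SDG 5 just above basal 3, while the other 4 SDG lanes lay below all basal lanes. The log2 fold change was -0.60 ± 0.24 (95% interval -1.09 to -0.11, unadjusted p = 0.0195, edgeR adjusted p = 0.807).

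Oil lanes held miR-500 at 7.51 to 7.81 and flaxseed lanes at 5.85 to 7.20. SDG against oil gave -0.67 ± 0.23 (unadjusted p = 0.00873, edgeR adjusted p = 0.503), and SDG against flaxseed gave 0.19 ± 0.23. In SDG against oil 18 probes had an unadjusted p under 0.05 (7.11 percent), 12 higher in SDG (4.74 percent) and 6 lower (2.37 percent), and 0 passed the adjusted threshold. The SDG lanes are shared by these comparisons. The seed partner of miR-500, miR-501-3p, stood at -0.40 ± 0.25 in SDG against basal. In SDG against oil it stood at 0.38, opposite in sign to miR-500. Both belong to a miRNA cluster in an intron of Clcn5, a chloride transporter gene, of which 9 probes were on the panel and 7 were tested. In SDG against basal the other 5 stood at -0.19 (miR-532-3p), -0.15 (miR-532-5p), -0.15 (miR-188-3p), 0.12 (miR-362-5p) and 0.32 (miR-362-3p), so 5 of the 7 were below 0. This cluster was looked at after the values were seen.

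The 6 SDG lanes had nearly the same level of miR-872, at 7.77, 8.01, 7.77, 7.83, 7.75 and 7.99 log2 CPM (mean 7.85 ± 0.12, SD). Basal lanes read 6.13, 7.43, 7.82, 7.53 and 7.29 (mean 7.24 ± 0.65), so basal 3 overlapped SDG and basal 1, with 10 counts, was the low lane. The log2 fold change was 0.50 ± 0.24 (unadjusted p = 0.0492, edgeR adjusted p = 0.807), and it was 0.36 without basal 1. Oil lanes lay at 7.06 to 7.44, below every SDG lane, and flaxseed lanes at 7.62 to 8.82. All SDG lanes lay above all oil lanes for 2 of 253 probes (0.791 percent), miR-872 and miR-142-5p, and below them for 3 (1.19 percent). SDG against oil gave 0.55 ± 0.24 for miR-872 (unadjusted p = 0.0316, edgeR adjusted p = 0.505).

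**Figure D4:**
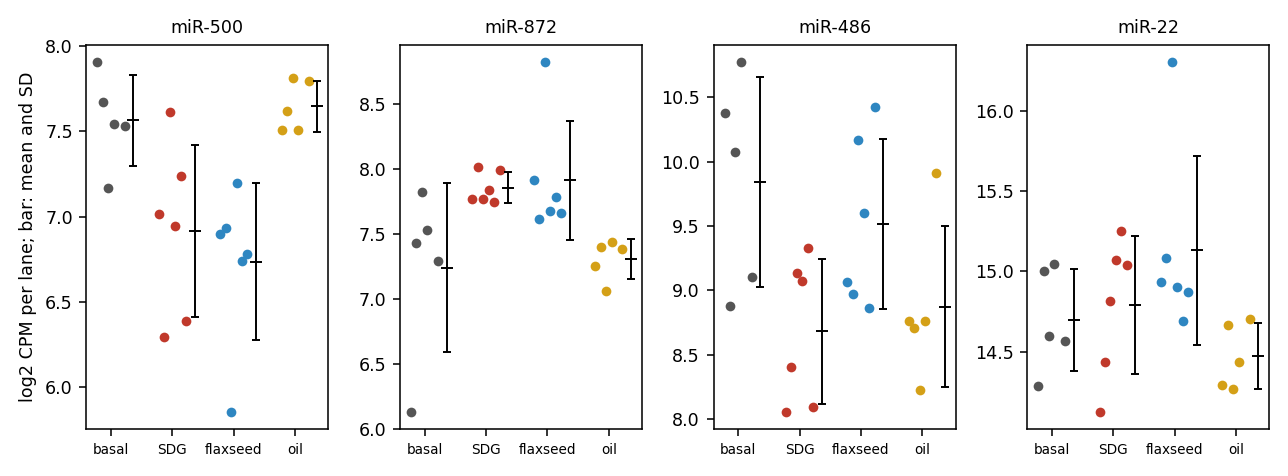
Log2 CPM (y axis) of miR-500, miR-872, miR-486 and miR-22 in every lane of the basal, SDG, flaxseed and oil diets (x axis), 1 point per lane, with the mean and SD as a bar. SDG lanes of miR-872 sit between 7.75 and 8.01, above the oil lanes at 7.06 to 7.44, and for miR-500 the SDG and basal lanes overlap only through SDG 3 and SDG 5.

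Since enterolignans bind estrogen receptors, miRNAs tied to these receptors were described as lists. Of the 8 miRNAs reported to target estrogen receptor alpha, 6 were tested, 2 stood above 0 and 4 below, with a median of -0.15. They were miR-18a (0.20 ± 0.22), miR-22 (0.11 ± 0.28), miR-193b (-0.44 ± 0.46), miR-221 (-0.13 ± 0.25), miR-222 (-0.17 ± 0.31) and miR-206, which was also counted with the muscle list above. The level of miR-22, an abundant member, was 14.29, 15.00, 14.60, 15.04 and 14.56 log2 CPM in basal and 14.12, 14.43, 14.82, 15.07, 15.25 and 15.04 in SDG lanes, and the groups overlapped. Of the 7 miRNAs known to respond to estrogen, 6 stood above 0 and 1 below (median 0.25). The highest was miR-21, a growth-linked miRNA with basal lanes at 12.98, 14.89, 14.46, 14.41 and 14.94 and SDG lanes between 14.55 and 15.10, at 0.32 ± 0.29, and the one below 0 was the joint probe for miR-181b and miR-181d (-0.43 ± 0.33). Without basal 1, the low lane for miR-21, its log2 fold change was 0.12, and the median of the list relative to that of all probes went from 0.27 to 0.072. None of these 13 had an adjusted p under 0.05, and only miR-206 had an unadjusted p under 0.05.

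The epithelial and stromal lists lay close to the median of all probes. Luminal miRNAs, which include the miR-200 family that maintains the epithelial state, had 5 of 7 tested members above 0 (median 0.18, with miR-200c at 0.26 ± 0.40). For the basal epithelial list it was 1 of 3 (median -0.06, with miR-205 at -0.41 ± 0.54). Adipocyte miRNAs had 1 of 7 above 0 and a median of -0.09, with miR-378 at -0.28 ± 0.33. The smooth muscle and stroma list had 1 of 5 above 0 and a median of -0.10, with miR-145 at -0.44 ± 0.35. Of the miRNAs of gland development and milk, 4 of 6 were above 0 (median 0.10), led by miR-148a, abundant in milk, at 0.35 ± 0.22. Basal 1 was the low lane for miR-148a, and without it miR-148a stood at 0.18 and the median of the list relative to all probes turned from 0.12 to -0.088. Without the same lane the relative median of the luminal list went from 0.20 to -0.011 and that of the smooth muscle and stroma list from -0.080 to -0.29. Endothelial (0.02), myeloid (-0.09), liver (0.16) and neuronal (-0.19) medians were also small, and the neuron-defining miR-9 and miR-124 did not reach the detection filter.

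By family, all 9 tested probes of miR-17/92 and its paralogs, a growth-promoting cluster, had a log2 fold change above 0 (median 0.35), from 0.07 for miR-93 to 0.71 ± 0.46 for miR-92a, and 0 of them had an unadjusted p under 0.05. Probes of this list count transcripts of shared clusters and are not independent. In miR-92a the basal lanes read 6.79, 6.53, 5.50, 6.38 and 6.09 and the SDG lanes 7.95, 7.69, 6.57, 6.52, 5.67 and 6.24, with SDG 1 and SDG 2 again highest. Without these 2 lanes it stood at -0.01. The miR-92a probe exceeded background in 4 SDG lanes and 2 basal lanes. The miR-15/16 family had 4 of 6 above 0 (median 0.30) and the miR-29 family, regulators of collagen genes, 3 of 3 (median 0.33). Without basal 1 alone, the medians relative to all probes went from 0.32 to 0.059 for miR-15/16, from 0.35 to 0.074 for miR-29 and from 0.37 to 0.17 for miR-17/92. The let-7 family (4 of 9, -0.04), the miR-30 family (4 of 5, 0.11), the miR-34 family (1 of 3, -0.01), the miR-23/27/24 clusters (2 of 5, -0.15) and the imprinted Dlk1-Dio3 cluster (9 of 22, -0.09) completed the lists.

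**Figure D5:**
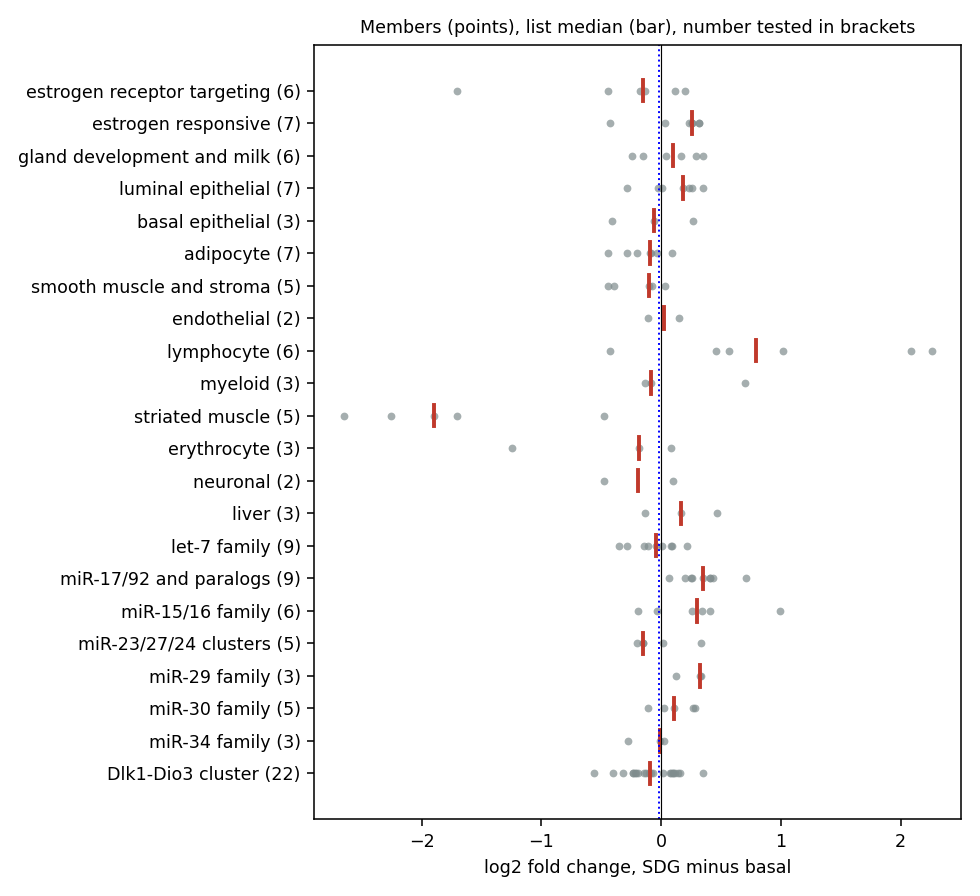
Log2 fold change of SDG over basal (x axis) for the tested members of each miRNA list (points), with the list median as a red bar and the median of all tested probes as a dotted line. The striated muscle (median -1.89) and lymphocyte (median 0.79) lists have the widest spread, and the other medians lie between -0.19 and 0.35.

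The scaling moved the sign of most of these medians. Scaling by the positive controls shifted the median of all probes to -0.50 and scaling by the 4 housekeeping mRNAs to 0.44. Under one or the other, the median of every list except lymphocyte and striated muscle changed sign. Relative to the median of all probes under the same scaling, the lymphocyte median was 0.82 with positive controls and 0.64 with housekeeping mRNAs, the striated muscle median was -1.74 and -1.53, and the miR-17/92 median was 0.17 and 0.15.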

How the data were processed

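Per the file headers and the series' design text, the authors deposited raw barcode counts per probe, 1 lane per gland, unscaled. A separate deposited table holds log2 values of 238 miRNAs, scaled by the authors by a rule not given in the sources used here, and served only as an alternative. RNA was extracted with the mirVana kit, per the labels' protocols. Other per-sample columns left unused numbered 0.

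Mouse miRNA (Endogenous1) probes were tested where, in at least 5 of 22 lanes, they lay above the lane's background (mean of its 8 negative controls, plus 2 SD) (253 of 566). Of the 313 others, 261 exceeded background in no SDG or basal lane. All 22 lanes entered a single edgeR 4.0.16 quasi-likelihood fit (R 4.3.3) with TMM scaling and diet as the factor. P-values were adjusted over the 253 probes by Benjamini-Hochberg, with a threshold of 0.05. SE values are approximate, from each log2 fold change and its F statistic. Lane quality was compared by two-sided exact permutation tests (SciPy 1.17.1). The fit was also run on simulated counts without outlying lanes, so that run does not speak to lanes that stand apart.

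The comparison, its lists and tests were chosen with earlier results of these data known. Named miRNAs were the 10 of smallest p in each direction, the 2 leading members of each list, all members of the estrogen receptor, lymphocyte, striated muscle and erythrocyte lists, and some fixed miRNAs. Of these, 40 were carried through the alternatives: DESeq2 1.42.0, limma 3.58.1 (voom, and the log2 table), other scalings and filters, negative control subtraction, SDG and basal lanes alone, a replicate block, and lanes left out. Further members were named after their values were seen. Depth is given per lane. Per the labels, each lane is a separate female mouse, so p-values measure the spread between these animals.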

Additional observations from a re-analysis of the deposited data

Results flagged for a closer look

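Within a diet, a lane was singled out where its gap to the nearest other lane was a large share of the whole range (Dixon's 95% critical value). Chance does this in about 1 in 20 groups. Of 96 groups checked, 18 stood out, and in 11 of them the lane was basal 1. Many groups are miRNAs picked from these same lanes, and the groups are not independent. The number that stood out can therefore not be set against that rate.

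Basal 1 was the low lane for miR-142-3p at 10.46 log2 CPM (other basal lanes 12.33 to 12.46), miR-144 at 8.84 (11.17 to 11.39), miR-148a at 11.78 (13.01 to 13.21), miR-15a at 10.12 (12.07 to 12.23), miR-21 at 12.98 (14.41 to 14.94) and miR-451 at 11.23 (12.45 to 12.78). The same lane was low for the summed erythrocyte miRNAs at 12.03 (13.03 to 13.38). It was the high lane for miR-328 at 11.07 (9.05 to 9.43), miR-3471 at 10.13 (5.67 to 6.55) and miR-720 at 20.63 (14.80 to 16.28), where miR-720 took 65.5% of its counts (3.25% to 8.62% in the others).

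SDG 5 stood out for its miR-720 level of 19.60 log2 CPM (14.41 to 15.64 in the other SDG lanes) and miR-720 share of 47.4% (2.46% to 5.82%). Its total of 685937 counts exceeded the 260062 to 392638 of the other SDG lanes, and its share of probes above background was 50.4% (34.5% to 39.0%). SDG 1 was high for miR-142-5p at 9.45 (8.41 to 8.77), and SDG 6 was low for miR-499 at 4.69 (5.60 to 5.97). In basal 4 the positive controls had a geometric mean of 1299, against 1087 to 1122 in the other basal lanes.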

How the results depend on the processing

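The count of 0 miRNAs at an adjusted p under 0.05 held in all 28 alternatives, with a smallest adjusted p of 0.102. The 13 probes at an unadjusted p under 0.05 became 4 with limma-voom, 2 with housekeeping scaling, 27 with positive control scaling (1 higher, 26 lower), 20 with no filter, 5 on the authors' log2 table and 26 (15 higher, 11 lower) once basal 1, SDG 5 and flaxseed 3, where miR-720 exceeded 40% of the counts, were left out. Leaving out 1 lane at a time gave 5 (without SDG 2) to 23 (without SDG 5). In settings chosen after seeing the data they became 5 without SDG 1 and SDG 2, and 29 without basal 3, basal 4 and SDG 5 (5 higher, 24 lower). Replicate number as a block gave 0 adjusted and 14 unadjusted calls. Same-numbered SDG and basal lanes correlated at 0.10, 0.18, -0.21, 0.53 and 0.29, so the numbers were not taken to pair the mice. No adjusted call changed with the block. At the unadjusted limit, of the miRNAs carried through, miR-206, miR-328, miR-3471 and miR-466a-3p left the list and miR-1 (from -2.26 to -4.79), miR-142-5p, miR-467b and miR-7a entered it.

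Of 1111 values for 40 miRNAs, 42 reversed in sign, and 17 miRNAs did so nowhere. The cause was not tested, except that the scalings by controls moved all probes. Housekeeping scaling reversed miR-127 (0.23), miR-144 (0.13), miR-149 (0.054), miR-155 (0.38), miR-193b (0.59), miR-221 (0.29), miR-222 (0.45), miR-328 (0.16) and miR-720 (1.13). Positive control scaling reversed miR-148a (-0.28), miR-15a (-0.25), miR-18a (-0.32), miR-192 (-0.15), miR-200c (-0.29), miR-20a with miR-20b (-0.25), miR-21 (-0.38), miR-22 (-0.37), miR-342-5p (-0.0025), miR-451 (-0.46) and miR-872 (-0.065). Total count scaling reversed miR-155 (0.081) and miR-222 (0.068), limma-voom miR-144 (0.0033) and miR-3471 (0.070), and the authors' log2 table miR-451 (-0.029). Once those 3 lanes were left out, miR-155 (0.19), miR-22 (-0.090), miR-3471 (0.23) and miR-451 (-0.11) reversed. Leaving out 1 lane at a time moved miR-155 between -0.61 and 0.24, miR-193b between -0.86 and 0.24, miR-222 up to 0.0098, miR-3471 between -1.71 and 0.47, miR-451 between -0.17 (without SDG 4) and 0.22, and miR-720 between -3.42 and 1.82. Apart from that value of miR-451, their signs turned without basal 1, where miR-451 stood at -0.082, and miR-221 moved from -0.24 to 0.015, without basal 6. Without SDG 1 and SDG 2 together, miR-144 (0.024), miR-221 (0.077), miR-342-3p (-0.074), miR-342-5p (-0.15) and miR-92a (-0.0095) reversed.

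With 5 and 6 glands, the intervals cannot show differences much smaller than their median width, and larger ones can fail the adjusted test. Probes near background carry fewer counts and less precise values.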

Other observations

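One viral probe, for the cytomegalovirus miRNA mcmv-miR-M23-2, exceeded background in all 6 SDG and all 5 basal lanes. Its level was 7.54 ± 0.62 log2 CPM (SD, n = 6) in SDG and 8.01 ± 0.71 (n = 5) in basal lanes, with 0 SDG lanes above the highest basal lane, and it was left out of the tests.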
